A study of Mus musculus with 4 samples.

Results

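The genes described here make and import amino acids or belong to the stress programme run by the transcription factor ATF4. They were 34 mouse symbols taken from a list, not picked by their values, though the list was chosen with earlier results of these data known. A probe set annotated with 1 gene symbol was present for 33 of them, out of 18193 genes measured that way. Each gene was read from its brightest probe set, and 32 of the 33 passed a brightness filter set at the median intensity of all probe sets, 66.2, as did 11661 genes in all. Slc7a11, with a geometric mean intensity of 61.8, lay just under the filter, and Cbs, with 77.2, was the dimmest gene above it. Pycr1 was not analysed here, except for its promoter sequence.

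RNA came from cultured mouse osteoblasts, the cells that build bone, and was hybridised to 4 Affymetrix arrays. The insulin arrays held cells given 10 nM insulin for 6 h, 12 h or 24 h after serum starvation, and the control array carried the time 0 h and the agent entry control. All 4 groups share the genetic lesion: per the growth protocol the cells had no IGF-1 receptor, while the genotype entry reads IGF-1 null, and the sources used here do not settle which is meant. Each group was 1 array, so every difference below is between single arrays, with no p-value or error, and "higher" or "lower" describes these arrays only. Without an untreated array at the later times, insulin cannot be told apart from time in culture.

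The 0 h array stood apart from the insulin arrays in ways that reach beyond amino acid genes. The Y-linked gene Eif2s3y read 12.2 at 0 h and 295, 305 and 326 at 6, 12 and 24 h, and Xist, which coats the inactive X chromosome, read 109, 1636, 1278 and 1463 in the same order. Osteoblast markers summed to 53282 at 0 h and to 78901, 86711 and 89509 on the insulin arrays, with 5 of 7 measured markers at least 1.5-fold higher at all 3 times. Most of these sums came from Col1a1, Col1a2 and Sparc, with 13802, 20828 and 18290 at 0 h, so they hide larger differences. Ibsp read 202 at 0 h and 8849, 11706 and 13147 later. Pth1r read 36.9, 703, 1186 and 1444, and Alpl 61.5, 523, 920 and 1140, in the same order. Alpl, Pth1r and Sp7 lay under the filter at 0 h. Macrophage markers summed to 533 at 0 h and to 4766, 5946 and 6729, with 5 of 6 higher, and Ptprc and Itgam lay below the filter. Chondrocyte markers summed to 958, 6260, 9529 and 10746 (4 of 5 higher) and adipocyte markers to 957, 2542, 3999 and 5227 (2 of 5 higher). The higher adipocyte markers were Adipoq and Fabp4, while Lep and Cidec lay below the filter. Pparg read lower, with 223 at 0 h and 107, 184 and 196 later. Skeletal muscle markers summed to 346, 1894, 1977 and 1812, with Acta1 at 130.2, 1712, 1802 and 1626 of these sums, while Myod1, Myog and Myh3 were below the filter. Endothelial sums lay between 207 and 242, with 4 of 5 markers below the filter, and epithelial sums between 445 and 584, with 3 of 5 below it. The part of these shifts in the differences from 0 h was not tested. With 1 array at 0 h, insulin also cannot be told apart from a difference in the cells of that array. In such bulk RNA, fewer cells of a type and less RNA per cell cannot be told apart. Among the insulin arrays most of these sums differed less, though several still rose from 6 h to 24 h. Adipocyte sums went from 2542 to 5227, chondrocyte sums from 6260 to 10746 and macrophage sums from 4766 to 6729. Within the osteoblast sum, Alpl rose from 523 to 1140 and Pth1r from 703 to 1444.

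When amino acids run short, or the endoplasmic reticulum is strained, kinases phosphorylate the translation factor eIF2α. General translation then falls, while translation of the mRNA of ATF4 rises. ATF4, usually with a C/EBP partner, switches on genes that make, import and load amino acids onto tRNA, and, under lasting stress, genes such as Ddit3 that slow growth. Osteoblasts secrete large amounts of collagen and need ATF4, and mice without it form bone poorly. In several cell types insulin raises ATF4 through mTORC1, the growth-promoting kinase complex.

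ATF4 and its C/EBP partners bind a composite element, and its core letters TGATGNAA (TTNCATCA on the other strand) were searched in promoter windows of RefSeq genes on GRCm38.p6, which run from 250 bases before to 50 bases after each gene start. Of the 34 listed genes 31 had a window, Cth, Slc7a5 and Slc1a5 being the others. The core occurred in 12 of the 31, or 38.7%, against 1219 of 27025 genes with a window, or 4.51%. Counted by single windows the share was 3.97% of 32851, and among genes above the brightness filter it was 253 of 9425, or 2.68%. Of the listed genes above that filter and with a window, 10 had the core and 19 did not. The 12 listed genes with the core were Asns, Got1, Pycr1, Pck2, Slc7a11, Slc1a4, Trib3, Chac1, Atf3, Nupr1, Fgf21 and Vldlr. Many of these genes are textbook ATF4 targets, so the list itself is not independent of the element. The stretches below belong to the 6 matching genes with the largest difference between the insulin 12 h and 6 h arrays, and to Slc7a11, which held the core on both strands. They are read on the strand of the gene, 5′ to 3′, and capitals mark the matches. Distances are counted from the first base of a match, so the match of Slc1a4 spans the gene start. A match describes letters and does not show that a protein binds there.

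Asns, chr6:7693199-7693258, minus strand, match 23 bases before the start: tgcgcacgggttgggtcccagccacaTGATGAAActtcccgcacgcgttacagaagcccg

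Pck2, chr14:55540137-55540196, plus strand, match 103 bases before the start: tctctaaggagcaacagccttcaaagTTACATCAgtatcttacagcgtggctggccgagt

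Slc1a4, chr11:20332684-20332743, minus strand, match 4 bases before the start: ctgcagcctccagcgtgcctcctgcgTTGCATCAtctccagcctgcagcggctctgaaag

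Chac1, chr2:119351023-119351082, plus strand, match 193 bases before the start: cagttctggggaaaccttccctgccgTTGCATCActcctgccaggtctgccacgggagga

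Nupr1, chr7:126625547-126625606, minus strand, match 110 bases before the start: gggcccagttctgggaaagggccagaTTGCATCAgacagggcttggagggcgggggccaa

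Vldlr, chr19:27216794-27216853, plus strand, in the second of its 2 windows, match 200 bases before the start: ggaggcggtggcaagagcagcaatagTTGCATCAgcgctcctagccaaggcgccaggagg

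Slc7a11, chr3:50443627-50443705, minus strand, matches 66 and 47 bases before the start: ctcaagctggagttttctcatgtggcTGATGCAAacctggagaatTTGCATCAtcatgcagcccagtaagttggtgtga

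In the stretch of Asns the core lies on the gene's strand, and in those of Pck2, Slc1a4, Chac1, Nupr1 and Vldlr on the other one. The variable base was A in Asns, T in Pck2 and C in the remaining stretches, read on the strand of TGATGNAA.

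Against the 0 h array, the enzyme genes Psat1, Phgdh, Cth and Gpt2, the carriers Slc1a5, Slc6a9 and Slc38a2, the stress factors Ddit3 and Cebpb and the receptor Vldlr read lower on the insulin arrays, while Slc1a4, Ddit4, Sesn2 and Nupr1 read higher. At least 1.5-fold lower were 10 of the 32 genes at 6 h, 12 at 12 h and 12 at 24 h, where 12.8%, 13.3% and 13.3% of all genes above the filter were lower by that much. At least 1.5-fold higher were 4, 5 and 4, where 18.6%, 20.5% and 19.5% of all genes were. At all 3 times together 10 of 32 were lower, beside 10.5% of all genes, and 4 of 32 were higher, beside 17.0%. These 3 comparisons share the 0 h array, so they are not independent of one another. The median log2 difference of the 32 genes was -0.42, -0.28 and -0.46 at 6, 12 and 24 h, where the median of all genes was 0.0058, 0.033 and -0.0001.

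Counts and medians were also taken by role, with the same shares of all genes, 10.5% lower and 17.0% higher at all 3 times, to be read beside them. Of 13 synthesis genes 4 were lower and 0 higher at all 3 times, with medians of -0.48, -0.48 and -0.56 at 6, 12 and 24 h. Of 7 transporters above the filter 3 were lower and 1 higher, with medians of -0.51, -0.52 and -0.56. Of 10 stress genes 2 were lower and 3 higher, not far from those shares, and their medians of 0.02, 0.18 and -0.02 lay near 0. The differences between these role groups were not tested.

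**Figure D1:**
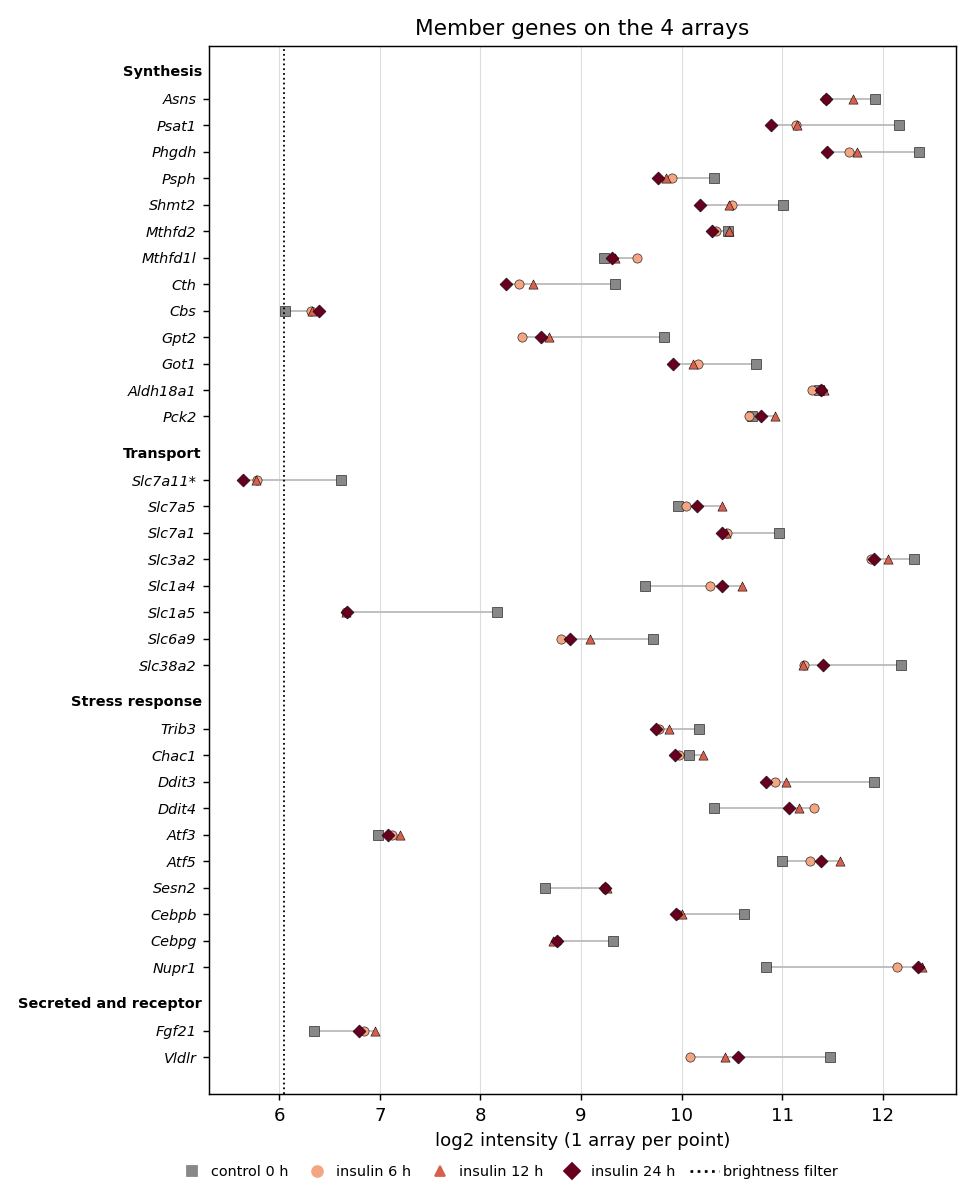
Log2 intensity (horizontal axis) of the 33 measured genes, grouped by role, with 1 point per array: control 0 h (squares), insulin 6 h (circles), insulin 12 h (triangles) and insulin 24 h (diamonds). The dotted line is the brightness filter at an intensity of 66.2, and the asterisk marks Slc7a11, whose mean lies below it. For Psat1, Gpt2, Slc1a5, Ddit3 and Vldlr the 3 insulin points lie together to the left of the 0 h point, and for Nupr1, Ddit4 and Slc1a4 to its right.

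Serine is made from a glycolytic intermediate in 3 steps. Psat1 was lower past 1.5-fold with both of its probe sets, Phgdh with its brightest one, and Psph did not pass. Phgdh, the dehydrogenase of the first step, read 5260.0 on the 0 h array, 3258 at 6 h, 3438 at 12 h and 2792 at 24 h. It was thus 1.61-, 1.53- and 1.88-fold lower, but 1 of its other probe sets ran the opposite way with 1890.0, 3059, 3246 and 2638, so its direction depends on the probe set. The remaining 2 probe sets of Phgdh were lower on every insulin array, with log2 differences between -0.51 and -0.82. Psat1, the aminotransferase of the second step, read 4592 at 0 h and 2259, 2270.2 and 1901 later. Every insulin array lay at least 2.02-fold under 0 h, and a second probe set showed log2 differences of -1.02, -0.75 and -0.85. Psph, the phosphatase that releases serine, read 1281 at 0 h and 960.0, 919 and 872 later, which is 1.33- to 1.47-fold lower and short of the threshold.

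One-carbon units are drawn from serine in mitochondria. Shmt2, which splits serine to glycine, read 2065 at 0 h and 1447, 1423 and 1167 on the insulin arrays, and only its 24 h value was past 1.5-fold, at 1.77-fold lower. The folate enzymes that follow it did not show that size. Mthfd2 read 1411 at 0 h and 1301, 1423 and 1268 later, within 1.11-fold of 0 h. Mthfd1l read 599.6 at 0 h and 753, 649 and 635 later, at most 1.26-fold higher.

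Among enzymes that move amino groups, Gpt2, the mitochondrial alanine aminotransferase, had 907 at 0 h and 340.1, 412 and 388 at 6, 12 and 24 h. Its folds of 2.67, 2.20 and 2.34 were the largest of any synthesis gene at 6 h and 12 h, and its other 3 probe sets were lower too, by 0.51 to 1.38 on the log2 scale. Got1, the cytosolic aspartate aminotransferase, read 1706 at 0 h and 1146, 1109.5 and 965 later. It was 1.49-fold lower at 6 h, just short of the threshold, and 1.54- and 1.77-fold lower at 12 and 24 h. Asns, which makes asparagine and is a standard readout of ATF4 activity, read 3876 at 0 h and 2774, 3338 and 2768 later, at most 1.40-fold lower. A second Asns probe set gave 3459, 2519, 3226 and 2695 in the same order.

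Transsulfuration, which makes cysteine from homocysteine, showed its second enzyme lower and its first near the brightness filter. Cth, the lyase that releases cysteine, read 645 at 0 h and 333, 368 and 305 later, which is 1.94-, 1.76- and 2.11-fold lower. Cbs, the synthase before it, read 66.3 at 0 h and 79.4, 80.2 and 84.3 later, and its second probe set pointed the other way at every time. No direction is therefore given for Cbs. Aldh18a1, which starts proline synthesis, read 2641 at 0 h and 2511, 2731 and 2677 later. Pck2, the mitochondrial phosphoenolpyruvate carboxykinase, read 1669.5 at 0 h and 1632, 1946 and 1767 later. Both stayed within 1.17-fold of 0 h, and for both at least 1 other probe set had the opposite sign at some time.

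Of the 7 transporters above the filter, Slc1a5, Slc38a2 and Slc6a9 were lower and Slc1a4 was higher at all 3 times, and the other 3 did not pass 1.5-fold. Slc1a5, the glutamine carrier ASCT2, read 287 at 0 h and 101, 101 and 102 later. It was 2.82-, 2.83- and 2.80-fold lower, the largest fold of any of the 32 genes lower at all 3 times, and its insulin values lay within 0.02 log2 of one another. A second Slc1a5 probe set, below the filter, read 64.2 at 0 h and 71.2, 60.5 and 53.4 later, so this size rests on 1 probe set. Slc38a2, the SNAT2 carrier that cells raise when starved of amino acids, read 4636 at 0 h and 2378, 2370.0 and 2712 later, 1.95-, 1.96- and 1.71-fold lower. Both other Slc38a2 probe sets above the filter were lower too, with log2 differences from -0.53 to -1.49. Slc6a9, the glycine carrier GLYT1, read 839 at 0 h and 447, 544 and 475 later, between 1.54- and 1.87-fold lower. Slc1a4, the carrier ASCT1 of alanine, serine and cysteine, read 796 at 0 h and 1249, 1558 and 1355 later, or 1.57-, 1.96- and 1.70-fold higher. Its other 2 probe sets were higher as well, one by 0.88 to 1.07 and the other by 0.37 to 0.83 on the log2 scale.

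Slc7a5, the light chain of the large neutral amino acid carrier LAT1, read 1000.5 at 0 h and 1058, 1349.8 and 1138 later, at most 1.35-fold higher. Slc3a2, the heavy chain it needs, read 5095 at 0 h and 3773, 4242 and 3864 later, at most 1.35-fold lower. The 2 chains of this carrier thus had opposite signs at all 3 times, and neither passed 1.5-fold. Slc7a1, the carrier CAT1 of arginine and lysine, read 1999 at 0 h and 1401, 1395 and 1352 later, 1.43- to 1.48-fold lower. Slc7a11, the cystine carrier xCT, read 98.0 at 0 h and 55.0, 54.4 and 49.8 later, with the insulin values all under the brightness filter, and it is not counted.

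Stress genes included both the highest and some of the lowest differences. Nupr1, a small chromatin protein that many stresses raise, read 1839 at 0 h and 4518, 5360 and 5242 on the insulin arrays. It was 2.46-, 2.92- and 2.85-fold higher, more than any other of the 32 genes, and a second probe set gave log2 differences of 1.33, 1.53 and 1.53. Ddit4, also called REDD1, restrains mTORC1 and read 1285 at 0 h and 2556.5, 2307 and 2142 later. Unlike Nupr1 it was highest at 6 h, at 1.99-fold, and 1.79- and 1.67-fold higher at 12 and 24 h. Sesn2, a leucine sensor that also restrains mTORC1, read 400.5 at 0 h and 605, 614 and 604 later, only just past the threshold at 1.51-, 1.53- and 1.51-fold. Its second probe set was 0.63 higher at 6 h but 0.41 and 0.27 at 12 and 24 h on the log2 scale.

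Ddit3, the factor CHOP, read 3864 at 0 h and 1955, 2101 and 1838 later, 1.98-, 1.84- and 2.10-fold lower. Ddit3 and Ddit4, which carry the same family name but are unrelated proteins, thus lay on opposite sides of 0 h. Cebpb, a C/EBP factor that pairs with ATF4, read 1573 at 0 h and 991, 1026 and 985 later, at least 1.53-fold lower each time, and its second probe set was lower by 0.82 to 0.94 on the log2 scale. Cebpg, another such partner, read 637 at 0 h and 435, 423 and 435 later, past 1.5-fold only at 12 h, with a log2 difference of -0.59. Trib3, a pseudokinase that ATF4 induces and that feeds back on it, read 1156 at 0 h and 876, 939 and 857 later, at most 1.35-fold lower.

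Chac1, which degrades glutathione and is a sharp readout of ATF4 and CHOP, read 1078 at 0 h and 1008, 1189 and 982 later, within 1.10-fold of 0 h. Atf3, a factor induced by many stresses, read 127 at 0 h and 139, 147 and 136 later, at most 1.16-fold higher. Atf5, whose mRNA is translated under eIF2α phosphorylation like that of ATF4, read 2044 at 0 h and 2484, 3053 and 2687 later. Its 12 h value was 1.49-fold higher, just short of the threshold.

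Of the genes with an endocrine or receptor role, Fgf21, a stress hormone, was dim, with 81.3 at 0 h and 115, 124 and 111 later, and passed 1.5-fold only at 12 h, at 1.53-fold higher. Vldlr, a lipoprotein receptor that ATF4 can induce, read 2844 at 0 h and 1084, 1379.7 and 1513 later. It was 2.62-, 2.06- and 1.88-fold lower, and all 4 of its other probe sets above the filter were lower. A suffix in the name of a probe set is the mark of probes that may match more than 1 transcript. The brightest Vldlr probe set without a suffix had log2 differences of -0.88, -0.55 and -0.32 at 6, 12 and 24 h. Dimmer ones without a suffix, also above the filter, gave -1.32, -1.40 and -1.05, and -0.67, -0.58 and -0.44.

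**Figure D2:**
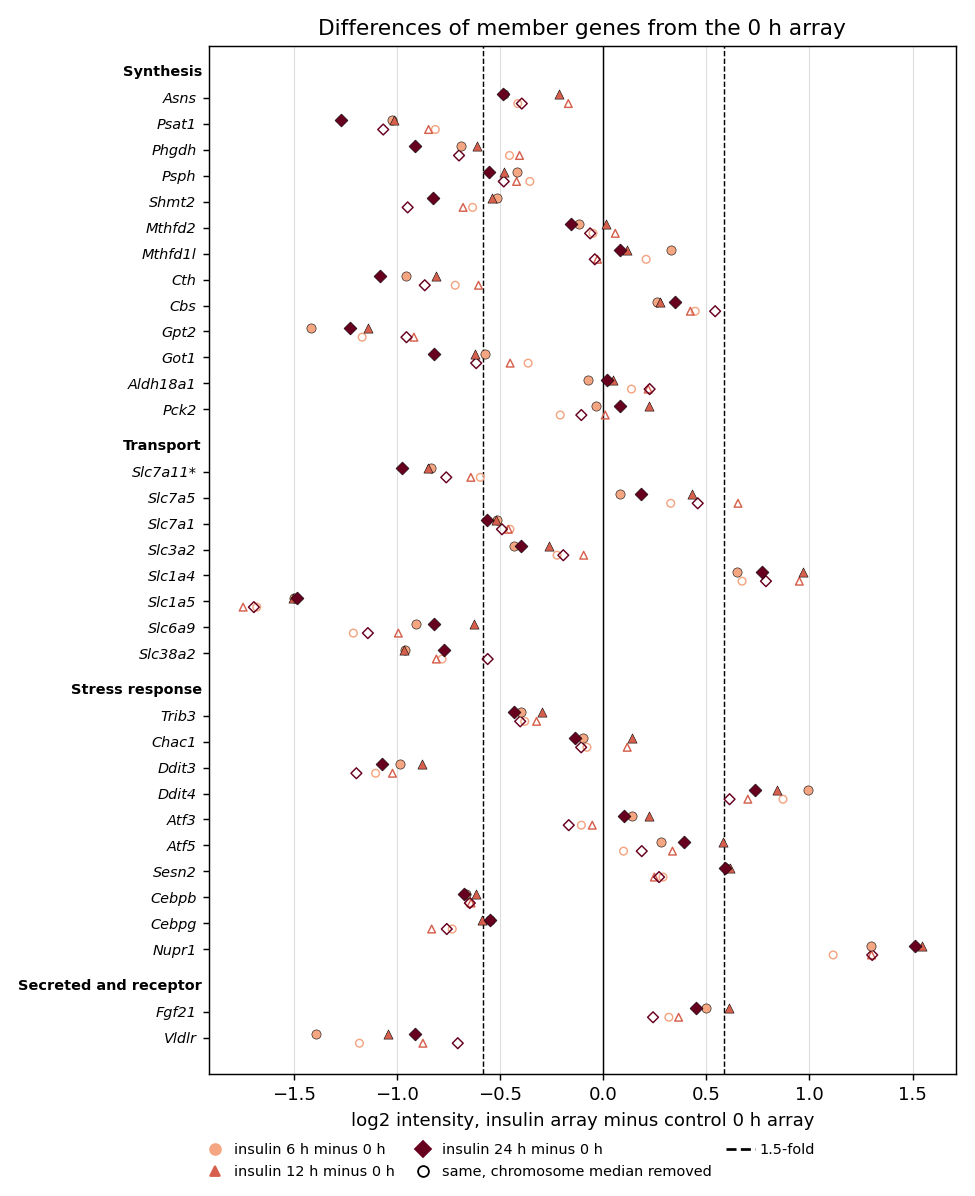
Log2 intensity of each insulin array minus the control 0 h array (horizontal axis) for the 33 measured genes, by role. Filled symbols show the difference itself at 6 h (circles), 12 h (triangles) and 24 h (diamonds), open symbols the same after the median of the gene's chromosome was subtracted, and dashed lines mark 1.5-fold. Slc1a5 and Gpt2 lie farthest to the left and Nupr1 farthest to the right, and Sesn2 crosses back inside the dashed line once its chromosome median is removed.

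Differences from 0 h also followed the chromosome a gene lies on. Median log2 differences over all genes above the filter were -0.24, -0.21 and -0.21 on chromosome 3 at 6, 12 and 24 h, where Cth and Phgdh lie, and -0.25, -0.22 and -0.27 on chromosome 8 (Gpt2, Slc7a5). They were -0.21, -0.17 and -0.21 on chromosome 19, with Aldh18a1, Got1, Psat1, Slc3a2 and Vldlr. Chromosome 4, with Sesn2 and Slc6a9, stood at 0.30, 0.37 and 0.32, and chromosome 7, with Atf5, Cebpg, Fgf21, Nupr1 and Slc1a5, at 0.18, 0.24 and 0.21. With chromosome medians removed, 3 of the 4 genes higher at all 3 times and 8 of the 10 lower ones kept their call. Sesn2, Phgdh and Slc38a2 lost it, and Shmt2 and Cebpg became lower at all 3 times. The median of the 32 genes was then -0.36, -0.25 and -0.40. What produced the shift by chromosome was not tested.

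Separate probe sets of a gene gave the same sign in most cases. There were 33 other probe sets above the filter, for 19 of the genes, and 30, 27 and 27 of them had the sign of the brightest one at 6, 12 and 24 h. For genes past 1.5-fold the count was 18 of 19, 19 of 20 and 21 of 22, with Phgdh as the exception each time. Probe sets of 1 gene share their RNA and are no replicates.

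**Figure D3:**
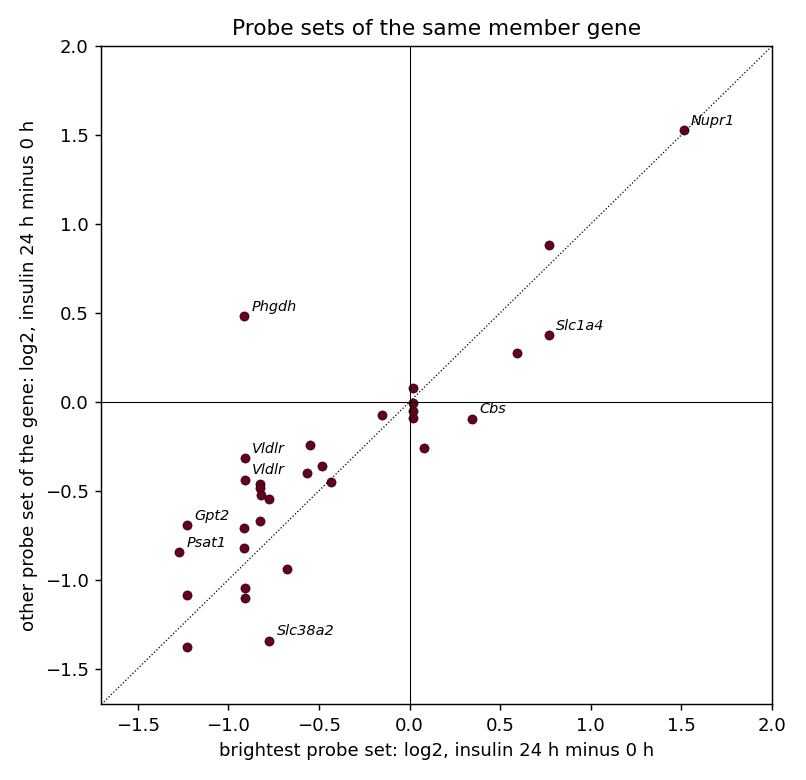
Log2 difference of the insulin 24 h array minus the 0 h array for the brightest probe set of a gene (horizontal axis) and for each of its other probe sets above the filter (vertical axis), 33 points for 19 genes. Points on the dotted diagonal are equal. Of these, 27 have the same sign on both axes, and Phgdh stands alone far into the upper left.

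Set among each other, the 3 insulin arrays differed little in these genes. None of the 32 differed by 1.5-fold between 12 h and 6 h, between 24 h and 6 h or between 24 h and 12 h, where 1.48%, 1.80% and 0.206% of all genes did. With a smaller mark of 0.322 on the log2 scale, Slc7a5 and Vldlr were higher at 12 h than at 6 h (1.28- and 1.27-fold), 2 of 32 beside 5.28% of all genes. Vldlr alone was higher by that much at 24 h than at 6 h, at 1.40-fold, beside 4.81%, and 0 of 32 were so at 24 h against 12 h, beside 1.73%. None was lower by that mark in these pairs, where 2.50%, 1.89% and 1.48% of all genes were, in the order 12 h against 6 h, 24 h against 6 h and 24 h against 12 h. Lower by any amount at 24 h than at 6 h were 19 of 32, beside 50.7% of all genes.

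Small as they were, these differences often had the same shape, with the highest insulin value at 12 h. That held for 21 of the 32 genes, or 65.6%, beside 40.0% of all genes above the filter. The pattern was looked for after the values had been seen. By role it held for 8 of 13 synthesis genes, 4 of 7 transporters, 8 of 10 stress genes and 1 of the other 2. The median of the 32 genes was 0.10 for 12 h minus 6 h and -0.13 for 24 h minus 12 h, where all genes had 0.027 and -0.027. Asns was 1.20-fold higher at 12 h than at 6 h and its 24 h minus 12 h difference was -0.27 on the log2 scale. Slc1a4 was 0.319 higher on the log2 scale at 12 h than at 6 h, just under the mark. Its other probe sets were split for this pair, one with 0.18 and the other with -0.29. Atf5, Slc6a9, Gpt2, Pck2 and Chac1 were 1.23-, 1.22-, 1.21-, 1.19- and 1.18-fold higher at 12 h than at 6 h and lower again at 24 h than at 12 h. No replicate gives an error for differences of this size.

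Several genes departed from this shape. Ddit4 was highest at 6 h and lower at each later time, with 2556.5, 2307 and 2142. Shmt2, Got1, Psph and Mthfd1l were also highest at 6 h and lowest at 24 h, and the 24 h minus 6 h difference of Shmt2, -0.31 on the log2 scale, came close to the smaller mark. Slc7a1 and Cebpg were highest at 6 h as well, with all 3 insulin values within 0.05 and 0.04 log2. Vldlr was highest at 24 h, as were Slc38a2, Cbs and Slc1a5, although the 3 values of Slc1a5 were almost equal. For 13 of the 21 genes highest at 12 h another probe set lay above the filter, and 15 of those 21 probe sets were highest at 12 h too and 6 at 6 h. The second probe sets of Asns, Psat1, Mthfd2, Pck2, Slc6a9, Trib3, Cebpb and Nupr1 were highest at 12 h, and of the 4 other Aldh18a1 probe sets 1 was highest at 12 h and 3 at 6 h. Slc1a4, Sesn2 and Phgdh each had 1 other probe set highest at 6 h, that of Slc1a4 with 604, 494 and 440 at 6, 12 and 24 h.

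**Figure D4:**
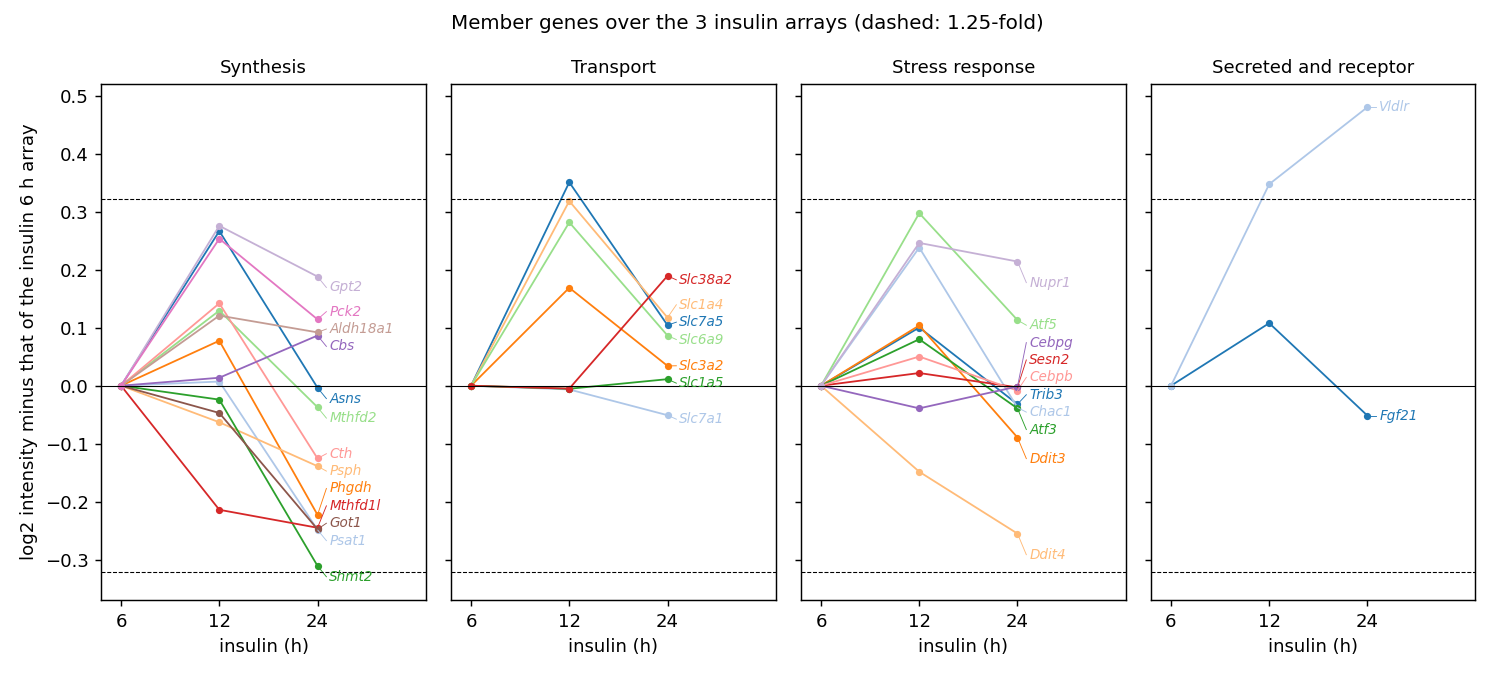
Log2 intensity minus that of the insulin 6 h array (vertical axis) on the insulin 6 h, 12 h and 24 h arrays (horizontal axis) for the 32 genes above the filter, 1 line per gene and 1 panel per role. Dashed lines mark 0.322 above and below the 6 h array. Of the 32 lines 21 peak at 12 h, Ddit4 and Shmt2 end low, and Vldlr alone ends above the upper dashed line.

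Genes with the promoter core included both directions. Of the 10 genes above the filter with a match, 2 were higher at all 3 times (Slc1a4 and Nupr1), 1 was lower (Vldlr) and 8 were highest at 12 h among the insulin arrays. Of the 19 with a window and no match, 2 were higher (Ddit4 and Sesn2), 7 were lower and 11 were highest at 12 h. Of all genes 17.0% were higher, 10.5% lower and 40.0% highest at 12 h. With a match, the higher and lower counts lie near those shares, while 8 of 10 highest at 12 h lies above 40.0%. Without a match, 7 of 19 lower lies above 10.5%, and 11 of 19 highest at 12 h above 40.0%. Medians against 0 h were -0.07, 0.18 and -0.03 with a match and -0.51, -0.52 and -0.56 without, at 6, 12 and 24 h. A missing match covers only the window and these exact letters, so it does not show that a gene lacks the element. The difference between these groups was not tested.

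Regulators upstream of these genes came from a separate list. Atf4 read 6694 at 0 h and 4681, 5010.3 and 4433 later, past 1.5-fold only at 24 h, and its second probe set above the filter was lower as well, with 1999, 1315, 1599.8 and 1618. ATF4 is set largely by translation, which arrays do not measure. Eif2ak4, the kinase GCN2 that senses uncharged tRNA, read 259 at 0 h and 184, 181 and 175 later. Eif2ak3, the kinase PERK of the endoplasmic reticulum, read 463 at 0 h and 634, 563 and 647 later, and so had the opposite sign. Eif2ak2, the kinase PKR that double-stranded RNA activates and interferon induces, read 1222 at 0 h and 624, 519.7 and 514 later, with 3 probe sets all lower. Eif2ak1, the haem-regulated kinase HRI, read 361 at 0 h and 448, 513 and 471 later, but another of its probe sets ran the other way. Of 11 genes in this list, for the kinases, their adaptors, phosphatase subunits and ATF4, 1 was lower at all 3 times (Eif2ak2) and 0 higher, beside the same 10.5% and 17.0% of all genes.

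Loading of amino acids onto tRNA is another branch of the ATF4 programme. Of 19 cytosolic aminoacyl-tRNA synthetase genes 4 were lower at all 3 times and 0 higher, beside 10.5% and 17.0% of all genes. Kars, for lysine, read 3252 at 0 h and 1754, 1607 and 1537 later. Aars, for alanine, read 5574 at 0 h and 3008, 3213 and 2940.4 later, and its second probe set was lower too. Sars, for serine, read 5962 at 0 h and 3563, 3523 and 3230.5 later, and Tars, for threonine, read 3133 at 0 h and 1956, 1893 and 1879 later. Farsa, for phenylalanine, was also past 1.5-fold at 12 h and 24 h, with 1151 at 0 h and 773, 715 and 666 later. The remaining synthetases of this list were within 1.5-fold and varied in sign, and the list's median was -0.10, -0.05 and -0.10. Kars and Aars lie on chromosome 8, Sars on chromosome 3 and Tars on chromosome 15, all with medians below 0, and with chromosome medians removed Kars alone of the 4 kept its call.

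Mitochondria use their own synthetases. Lars2, for leucine, was the 1 of 15 such genes past 1.5-fold at any time, with 352 at 0 h and 102, 98.0 and 104 later, and one of its other probe sets ran the opposite way with 50.3, 101, 99.6 and 96.5. Of these 15 genes 11 were highest at 12 h among the insulin arrays, a share of 73.3% beside the 40.0% of all genes. The other separate lists had smaller shares. The share was 54.5% for the upstream regulators, 47.4% for cytosolic synthetases and 46.7% for other genes linked to ATF4. Of enzymes for glutamate, proline and branched-chain amino acids it was 53.8%, and of further serine, glycine and folate enzymes 41.7%. Other amino acid transporters had 36.8%, below the share of all genes.

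Other genes linked to ATF4 gave 2 higher and 2 lower of 15 at all 3 times, near the 17.0% and 10.5% of all genes. Ndrg1, which hypoxia and nutrient stress also raise, read 277 at 0 h and 950.2, 1016 and 937 later, and its other 4 probe sets were higher too. Gadd45b, a stress-inducible protein, read 694 at 0 h and 1343, 1345 and 1197 later, and its relative Gadd45a, by contrast, read 867 at 0 h and 485, 492 and 569 later. One further Gadd45b probe set stayed within 0.24 log2 of 0 h and had the opposite sign at 6 h. Herpud1, which helps degrade misfolded proteins of the endoplasmic reticulum, read 3003 at 0 h and 1785, 1908 and 1794 later. With chromosome medians removed, Ndrg1 and Gadd45b kept their call and Gadd45a and Herpud1 lost it.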

How the data were processed

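The linear intensities of all probe sets were used as the authors deposited them, and the submitters' processing notes name RMA, which corrects background, normalizes arrays and summarises probes. No software version or genome build is given in the sources used here. RMA compresses differences of dim probe sets, so folds near the filter can be understated.

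Of 45037 probe sets that are not controls (64 controls were left out), 34945 carried 1 symbol in the platform annotation, which can be old. Each gene was read from its brightest probe set by mean log2, and genes under the median of all probe sets were marked and not counted. Log2 differences between arrays were counted past 1.5-fold (0.322 log2 among insulin arrays). The number of arrays limits the precision. With 1 array per group no test was possible. The genes and lists were chosen with earlier results of these data known. Genes of other lists were named by the largest mean difference among those past 1.5-fold at all 3 times, up to 4 a list, beside the eIF2α kinases and Atf4. RefSeq tables of GRCm38.p6 gave chromosomes and promoters. The counting was tested on simulated data. Alternatives were other folds, filters, normalizations, a pseudocount of 16, a loess curve with span 0.3, other probe set rules and chromosome medians. Computation ran in Python 3.11.15 (numpy 2.4.6, pandas 2.3.3; loess from statsmodels 0.14.6; figures from matplotlib 3.10.9).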

Additional observations from a re-analysis of the deposited data

How the results depend on the processing

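No paired analysis was possible because each group holds 1 array. The counts at 1.5-fold and the medians of the 32 genes kept their direction, and counts stayed within 1.5 times, under other brightness filters, median centring, quantile normalization, a pseudocount, the mean of all probe sets and removal of chromosome medians. Exceptions came from the fold itself. With the smaller mark of 0.322 log2, 18 genes were lower at 6 h and 7 higher at 24 h, and 2 and 1 genes differed between 12 h and 6 h and between 24 h and 6 h. At 2-fold, 1, 1 and 1 were higher and 4, 4 and 5 lower at 6, 12 and 24 h. A mean in place of the median gave -0.30 at 6 h and -0.31 at 24 h. With suffixed probe sets left out, 24 genes remained and their 12 h median was -0.48. Removal of a loess curve turned the median for 24 h minus 6 h to 0.002, against -0.006 before, both near 0. The share of genes highest at 12 h, a count added after the data were seen, ranged from 53.1% to 69.0% over the alternatives, and that of all genes from 31.8% to 45.2%. Dim genes such as Cbs, Atf3 and Fgf21 are limited by signal over background.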

Other observations

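Amino acid genes outside the ATF4 list included larger differences from 0 h. Of 19 other amino acid transporters above the filter 8 were at least 1.5-fold higher at all 3 times and 2 lower, beside 17.0% and 10.5% of all genes. Slc7a2, a carrier of arginine and lysine, read 17.6 at 0 h and 366, 496 and 464 at 6, 12 and 24 h, its 0 h value lying far under the brightness filter of 66.2. A second Slc7a2 probe set above the filter was higher by less, with 22.6, 96.7, 119.9 and 102.3 in the same order. Slc38a4, a carrier of neutral amino acids, ran the other way with 2052 at 0 h and 164, 145 and 157 later, and a second probe set with 1249, 50.4, 46.2 and 41.3. Slc1a3, the glutamate carrier GLAST, read 123 at 0 h and 369, 445 and 471 later, and all 4 of its other probe sets above the filter were higher. Slc7a7, a light chain for export of cationic amino acids, read 37.9 at 0 h, also under the filter, and 128, 144 and 146 later. Slc7a7 is also known from macrophages, whose markers summed to 533 at 0 h and to 4766, 5946 and 6729 later, and their part in its difference was not tested.

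Several enzymes that handle glutamate, proline and branched-chain amino acids read higher on the insulin arrays. Of 13 such enzymes above the filter 5 were higher at all 3 times and 0 lower, with 17.0% and 10.5% of all genes past that size. Glul, which makes glutamine, read 216 at 0 h and 564, 643 and 711 later, while Oat, which converts ornithine, read 2070.1 at 0 h and 5717, 5904 and 5509 later. Bcat2, the mitochondrial branched-chain aminotransferase, read 195 at 0 h and 402, 445 and 432 later, and Aldh4a1, of proline breakdown, 237, 462, 476 and 439. With chromosome medians removed, Aldh4a1 and Bckdhb lost their call and Glul, Oat and Bcat2 kept it. Of 12 further serine, glycine and folate enzymes 1 was higher and 2 were lower, beside the same shares. Aldh1l1, the cytosolic formyl-folate dehydrogenase, read 31.7 at 0 h, far under the brightness filter, and 168, 242 and 256 later. Its other probe set, below the filter, was flat with 19.2, 19.0, 18.3 and 18.8, so the call rests on 1 probe set. Aldh1l2, its mitochondrial relative, read 1847 at 0 h and 940, 988 and 968 later. Shmt1, the cytosolic counterpart of Shmt2, read 458 at 0 h and 148, 171 and 172 later, and its other 3 probe sets were lower as well.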
